A study of Caenorhabditis elegans with 18 samples.

Results

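Long intergenic noncoding RNA (lincRNA) genes of the nematode Caenorhabditis elegans carry names that start with linc-. The genes described here are the 104 that the lists of the 18 libraries named as the only reference gene of a transcript locus, chosen by name among 20574 singly named gene labels, with linc-8 left out. All 104 are annotated as lincRNA in Ensembl release 115 on the WBcel235 assembly. That annotation holds 169 linc- genes without linc-8. Of the others, 26 appeared only in loci that named several genes, and 39 were not found by name.

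RNA was sequenced from embryos of 6 strains, with 3 libraries per strain. Beside wild type, which is the strain N2, they were single mutants of rbm-5 with the allele n5119 or n5132, the single mutant uaf-1(n4588), and the double mutants uaf-1(n4588); rbm-5(n5119) and uaf-1(n4588); rbm-5(n5132). All were kept at 20 °C. Eggs were freed from synchronized adults by bleach and washed in water, and total RNA was treated with DNase. The labels do not give the molecular change of each allele, the exact age of the embryos or whether separate cultures were used, so every p-value below reflects the spread between libraries alone. The series title concerns how RBM-5 modifies splicing that depends on the U2AF large subunit, which uaf-1 encodes.

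LincRNAs are transcribed from between protein-coding genes, are usually spliced like messenger RNAs, and are not translated into known proteins. In many animals they are made at low levels and in particular stages or tissues, and few of those of C. elegans have a known role. Their introns need the same splicing machinery as coding genes, in which U2AF recognises the 3′ splice site and RBM-5 is an RNA-binding splicing regulator.

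The unit is FPKM, in which fragments are divided by transcript length and by the library's mapped fragments, so that levels can be compared between genes of different length. The level of a gene is the summed FPKM of the transcript starts listed for it. Each library held 53772–55828 entries, of which 26.7–33.7% were at 0. The files give no read counts, and the depth is unknown. Summed start FPKM was 1.25e+06–2.07e+06 in the libraries numbered replicate 1, where the 10 highest starts held 21.3–43.7% of it, and 8.04e+05–1.14e+06 in the others, where they held 7.57–11.8%. The share of entries at 0 was highest in rbm-5(n5119) replicate 3, at 33.7%, and uaf-1(n4588); rbm-5(n5119) replicate 1, at 32.1%. The uaf-1 transcript was at 67.1–124 FPKM in the uaf-1(n4588) single mutant, against 124–218 in wild type, and rbm-5 was listed in every strain, between 18.1 and 91.7 FPKM, so neither level identifies an allele. Listed embryonic markers were present, with summed levels of 260–2406 FPKM for 7 maternal genes, 109–323 for 6 listed early zygotic genes and 211–547 for 5 listed genes of late embryonic tissues. The 6 yolk protein genes of adults summed to 0.190–4.25 FPKM, 4 sperm genes to 0–2.88 and 4 meiotic germline genes to 47.1–238.

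LincRNA genes were mostly listed at 0. In a library, 85–94 of the 104 were listed singly, 20–30 were above 0 and 10–20 reached 1 FPKM. The share above 0 was 22.7–34.1% of those listed, against 66.6–75.8% of protein-coding genes and 38.2–47.7% of pseudogenes. The range of the lincRNA genes overlapped neither. For 26 other named long noncoding RNA genes, described below, the share was 15.8–36.4%, which overlapped that of the lincRNA genes. The share that reached 1 FPKM was 11.1–22.2% for lincRNA genes and 16.5–21.4% for pseudogenes. The median level of those above 0 was 0.440–4.68 FPKM for lincRNA genes, 0.519–0.950 FPKM for pseudogenes and 7.01–14.5 FPKM for protein-coding genes. An exact 0 can also be a failed estimate of the transcript assembler. For that reason genes at 0 are given as listed at 0, and not as silent.

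**Figure D1:**
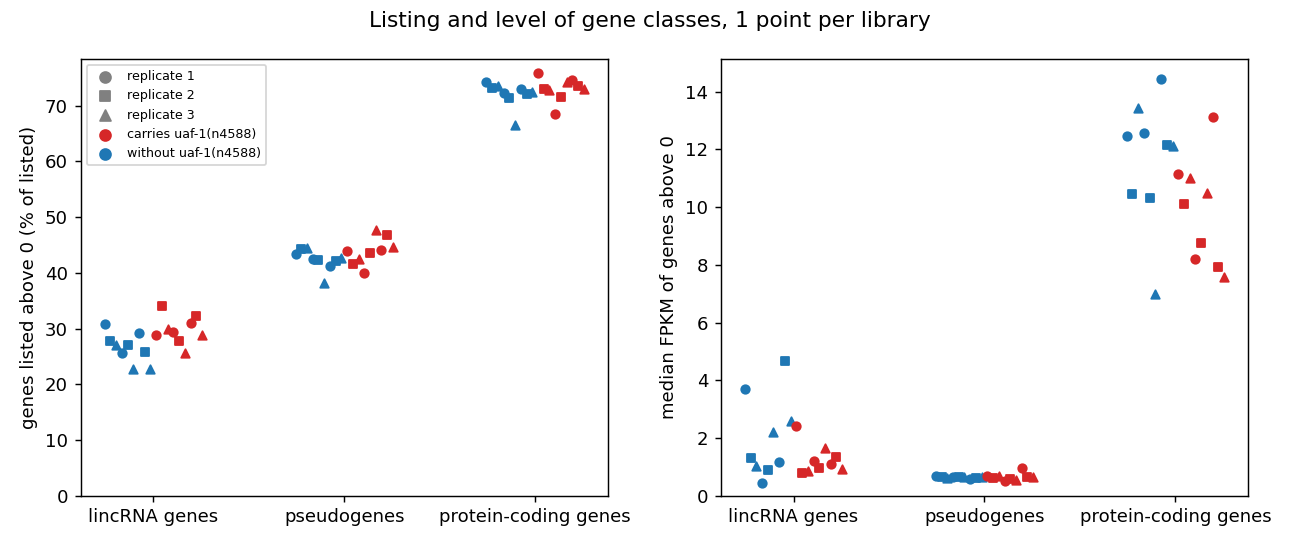
The left panel plots the percent of listed genes above 0 and the right panel the median FPKM of the genes above 0, with 1 point per library, its shape giving the replicate number and its colour whether the strain carries uaf-1(n4588). LincRNA genes lie at 22.7–34.1% and protein-coding genes at 66.6–75.8%, with pseudogenes at 38.2–47.7%.

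Over all libraries, 51 lincRNA genes were at 0 wherever they were listed, and 53 were above 0 at least once. Of the 53, 4 were above 0 in all 18 libraries: linc-5, linc-9, linc-17 and linc-68. In 1 or more libraries 34 genes reached 1 FPKM and 18 reached 10 FPKM. Of the 18, linc-2, linc-10, linc-37, linc-42, linc-73, linc-128, linc-156 and linc-169 reached 10 FPKM only in loci over 500 bases longer than annotated. The number above 0 was 24–29 in wild type, 20–23 with rbm-5(n5119), 20–26 with rbm-5(n5132) alone, 26–30 in the uaf-1(n4588) single mutant, 22–27 in uaf-1(n4588); rbm-5(n5119) and 26–28 in uaf-1(n4588); rbm-5(n5132). The counts of rbm-5(n5119) were below all those of wild type, uaf-1(n4588) and uaf-1(n4588); rbm-5(n5132), and the other ranges overlapped in part. The share of all entries at 0 was also higher in rbm-5(n5119), at 29.3–33.7%, than in those 3 strains, at 26.7–28.5%, and its part in the lower counts was not tested. The 26 other long noncoding RNA genes with names of their own (the anr- genes, tts-1 and rncs-1) had 3–8 members above 0 per library, led by anr-1 with a median of 212 FPKM, anr-28 with 59.6 and anr-8 with 13.0.

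**Figure D2:**
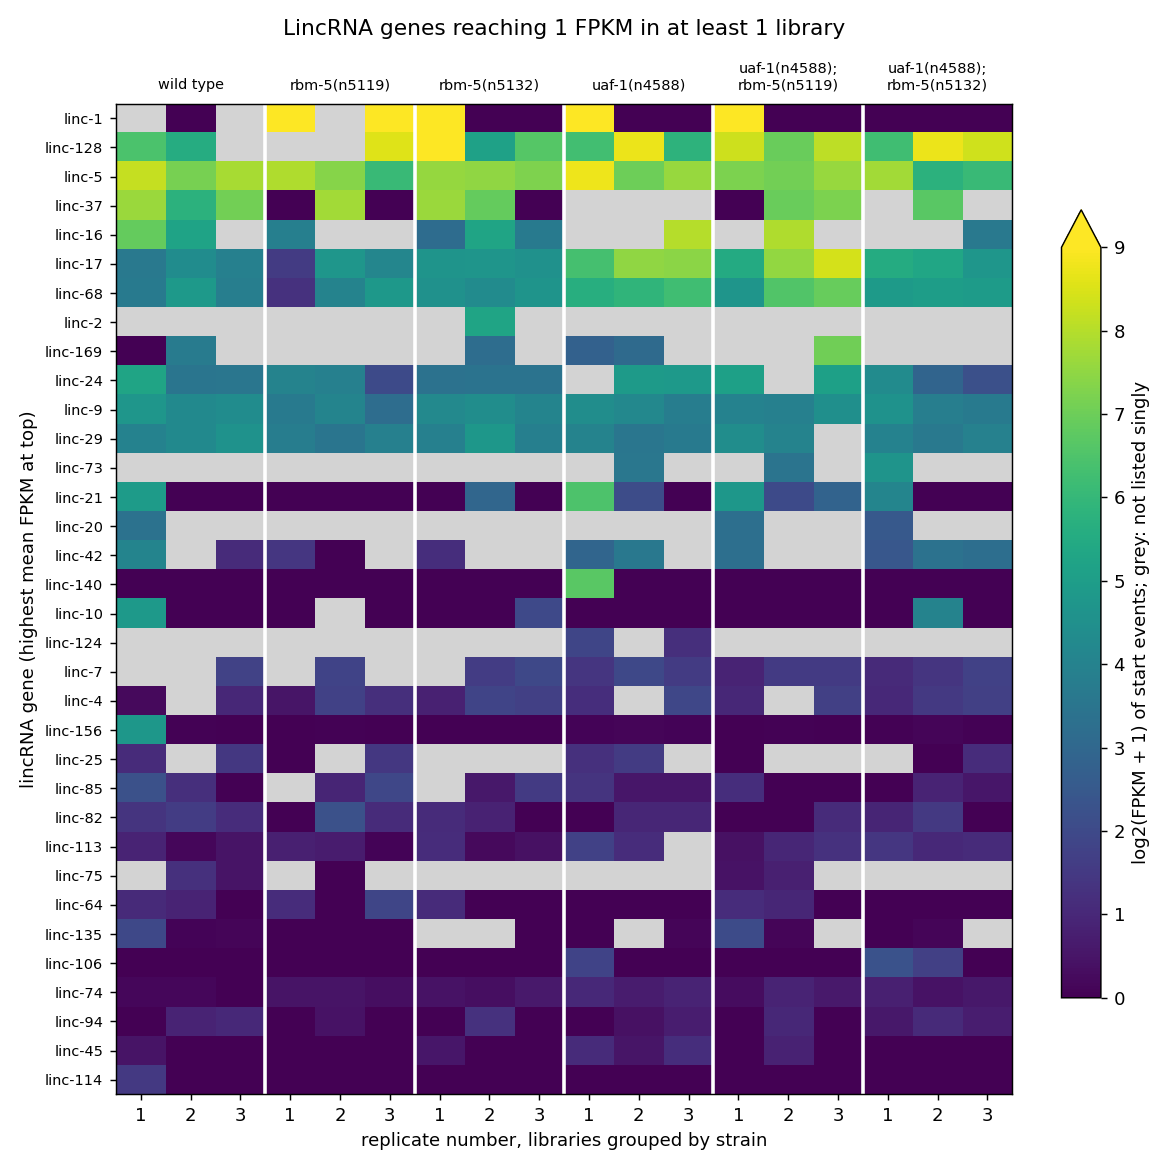
Each row is 1 of the 34 lincRNA genes that reached 1 FPKM, ordered by mean level, and each column is 1 library, grouped by strain. Colour gives log2(FPKM + 1), with values above 9 in the top colour and grey where a gene was not listed singly. Few rows are coloured across all columns, and linc-17 and linc-68 are brighter in the uaf-1(n4588) and uaf-1(n4588); rbm-5(n5119) columns.

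The 104 genes lie on all 6 chromosomes: 15 on I, 19 on II, 16 on III, 15 on IV, 22 on V and 17 on X. Of these, 6 have 1 exon, 75 have 2 and 23 have more, up to 5. Their exonic length has a median of 444 bases and runs from 114 to 4183. Small RNA genes aside, 17 overlap a gene on the same strand, 18 a gene on the opposite strand, and 75 neither. Whether reads were counted by strand is not given in the sources used here, so reads of an overlapping gene on the opposite strand cannot be told apart from those of the lincRNA.

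The most abundant of the genes present in every library was linc-5 (X:14018610–14019376, plus strand, 2 exons), at 54.4 to 431 FPKM with a median of 172. It overlaps C04C11.23 on the same strand, so its reads may be shared with that gene. In wild type linc-5 was at 293, 141 and 223 FPKM, and in uaf-1(n4588); rbm-5(n5132) at 213, 54.4 and 68.2, so the strains overlapped. Of these 4 genes linc-9 had the narrowest range (I:3703542–3704956, plus strand, 4 exons), from 8.28 to 25.5 FPKM with a median of 16.5. Next to it in level was linc-29 (IV:6354024–6357243, plus strand, 3 exons), listed in 17 libraries at 10.2 to 26.1 FPKM. The mean levels of linc-9 and linc-29, 16.8 and 15.4 FPKM, differed by less than the spread of either gene over libraries. The gene linc-24 (III:1370495–1371568, plus strand, 3 exons) was listed in 16 libraries at 3.05 to 36.9 FPKM.

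The gene linc-17 rose with uaf-1(n4588) in the average over 3 backgrounds, and its neighbour linc-68 was not called there. The gene linc-17 (II:3596226–3596812, plus strand, WBGene00219755) has 2 exons and 398 exonic bases. The gene linc-68 (II:3597516–3597914, plus strand, WBGene00219756) has 2 exons and 348 exonic bases and starts 703 bases beyond the end of linc-17 on the same strand. Neither overlaps another gene that is no small RNA, and the listed locus of both matched the annotated span in all 18 libraries.

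In libraries without uaf-1(n4588) the level of linc-17 was 11.6, 19.6 and 14.2 FPKM for wild type, then 1.99, 25.5 and 16.6 for the allele n5119 of rbm-5, and 24.5, 25.2 and 22.5 for the allele n5132, in the order of replicates 1, 2 and 3. With the uaf-1 mutation it was 80.9, 179 and 171 FPKM for the uaf-1(n4588) single mutant, 44.7, 184 and 342 in uaf-1(n4588); rbm-5(n5119), and 45.7, 39.6 and 25.4 in uaf-1(n4588); rbm-5(n5132). In each of the 3 backgrounds every library with uaf-1(n4588) was higher than every library without it, and over all strains the 9 and 9 libraries overlapped only by 25.4 against 25.5 FPKM. The mean was 144 ± 54.5 FPKM for uaf-1(n4588), against 15.1 ± 4.06 for wild type (SD, n = 3 each).

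**Figure D3:**
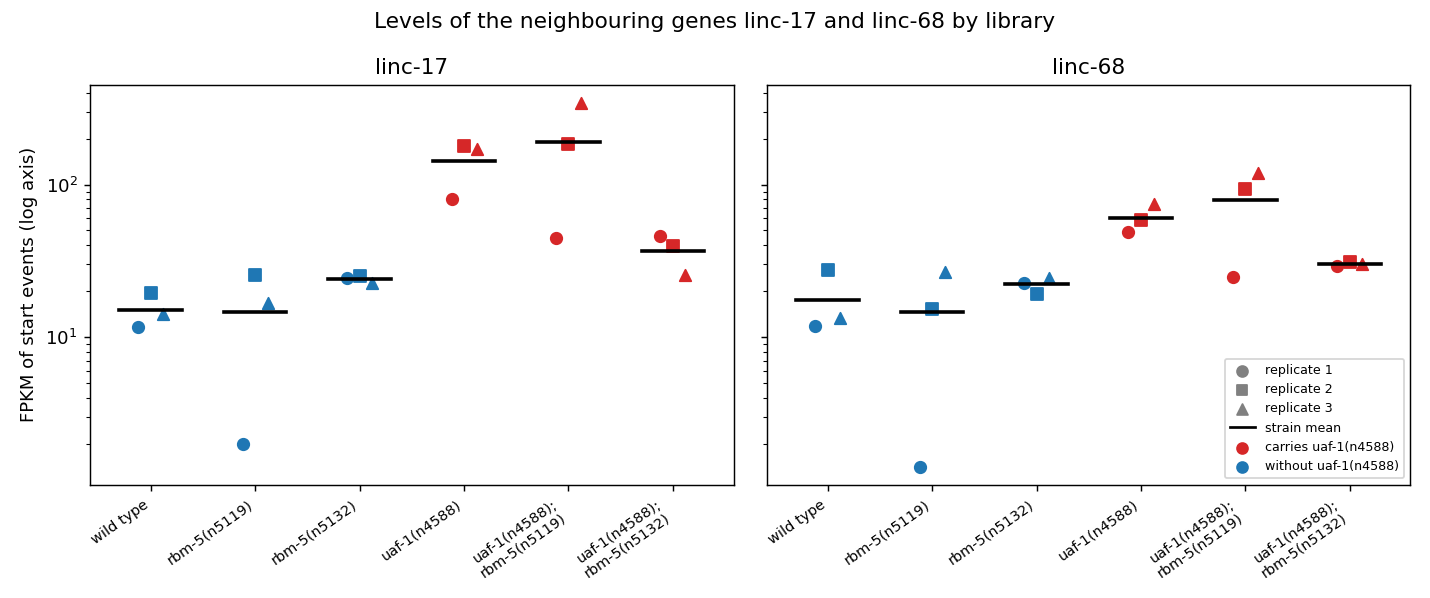
FPKM on a log axis of linc-17 (left) and linc-68 (right) in each of the 18 libraries by strain, with shapes for replicate numbers, colours for the presence of uaf-1(n4588) and a bar for each strain mean. The uaf-1(n4588) libraries of linc-17 lie at 80.9–179 FPKM against 11.6–19.6 in wild type, and those of uaf-1(n4588); rbm-5(n5132) at 25.4–45.7.

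The effect of uaf-1(n4588) averaged over the 3 backgrounds was the one contrast that called a lincRNA gene. Contrasts were fitted with limma across all genes on the log2(FPKM + 1) scale, which understates changes of low genes, and a gene was called at a Benjamini-Hochberg adjusted p under 0.05. Of the 104 lincRNA genes 12 passed the filter for this contrast, which asks for a mean of at least 1 FPKM and a listing in at least 2 libraries of each strain, and 1 was called, linc-17. Of all 7160 genes tested 47 were called, 0.656%, of which 26 were higher, 0.363%. The log2 change of linc-17 was 2.45 (SE 0.43, adjusted p = 0.0142 by limma). It was 1 of 2 lincRNA genes with an unadjusted p under 0.05, as 7.03% of all genes had, and the other was linc-68. Of the 12 tested lincRNA genes, linc-140 and linc-156 passed the filter through 1 library each, which fixed their direction. The median log2 change of the 12 was 0.17, with 6 above 0, and that of all genes was -0.03. With libraries scaled to 1 median that of all genes was 0.17 and that of linc-17 was 2.66, with an adjusted p of 0.00855 by limma. In bulk embryos a change in the number of cells that make a transcript and a change in its amount per cell cannot be told apart.

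The gene linc-68 was measured in the same libraries. It was at 11.7, 27.7 and 13.4 FPKM for wild type, 1.41, 15.3 and 26.9 for the allele n5119 of rbm-5, and 22.7, 19.2 and 24.5 for the allele n5132. With the uaf-1 mutation it was at 48.8, 58.3 and 74.7 FPKM for the single mutant, 24.6, 93.2 and 120 in uaf-1(n4588); rbm-5(n5119), and 29.2, 31.1 and 29.9 in uaf-1(n4588); rbm-5(n5132). The libraries did not overlap against wild type and in the rbm-5(n5132) background, and overlapped in the rbm-5(n5119) background, by 24.6 against 26.9 FPKM. Its averaged log2 change was 1.64 (SE 0.42, adjusted p = 0.147 by limma) and was not called. In 22 of 26 alternatives it was not called either, with log2 changes down to 1.29 and adjusted p up to 0.324 by limma. It was called without rbm-5(n5119) replicate 3, at 1.88 with an adjusted p of 0.0384, and without uaf-1(n4588); rbm-5(n5119) replicate 1, at 1.87 with 0.0452. These are the libraries with the most entries at 0, and without both the log2 change was 2.11 with an adjusted p of 0.0116 by limma. With replicates 2 and 3 only it was 1.50, with an adjusted p of 0.0303 by limma.

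The ratio of linc-17 to linc-68 was 0.619–1.66 in the 9 libraries without uaf-1(n4588), 1.66–3.07 in uaf-1(n4588), 1.82–2.86 in uaf-1(n4588); rbm-5(n5119) and 0.850–1.57 in uaf-1(n4588); rbm-5(n5132). The range of uaf-1(n4588); rbm-5(n5119) alone lay above that of the 9 libraries, while uaf-1(n4588) touched it, by 1.658 against 1.662, and uaf-1(n4588); rbm-5(n5132) overlapped it. The nearest annotated coding genes were matched to no singly named label, so their levels are not given. They are Y49F6A.12, 386 bases before linc-17, and Y49F6A.11, 427 bases beyond linc-68. Within 25 kb of linc-17 the other listed genes were at or near 0 or were not called. Of the C-type lectin genes clec-129, clec-130, clec-132, clec-133 and clec-134 and the chemoreceptor-class genes srh-57, srh-59 and srh-60, the highest value in any library was 0.191 FPKM. The tested neighbours were Y49F6A.5 at a log2 change of -0.13 (SE 0.21) and F40E12.1 at 0.29 (SE 0.55), with an adjusted p of 0.982 by limma for each.

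**Figure D4:**
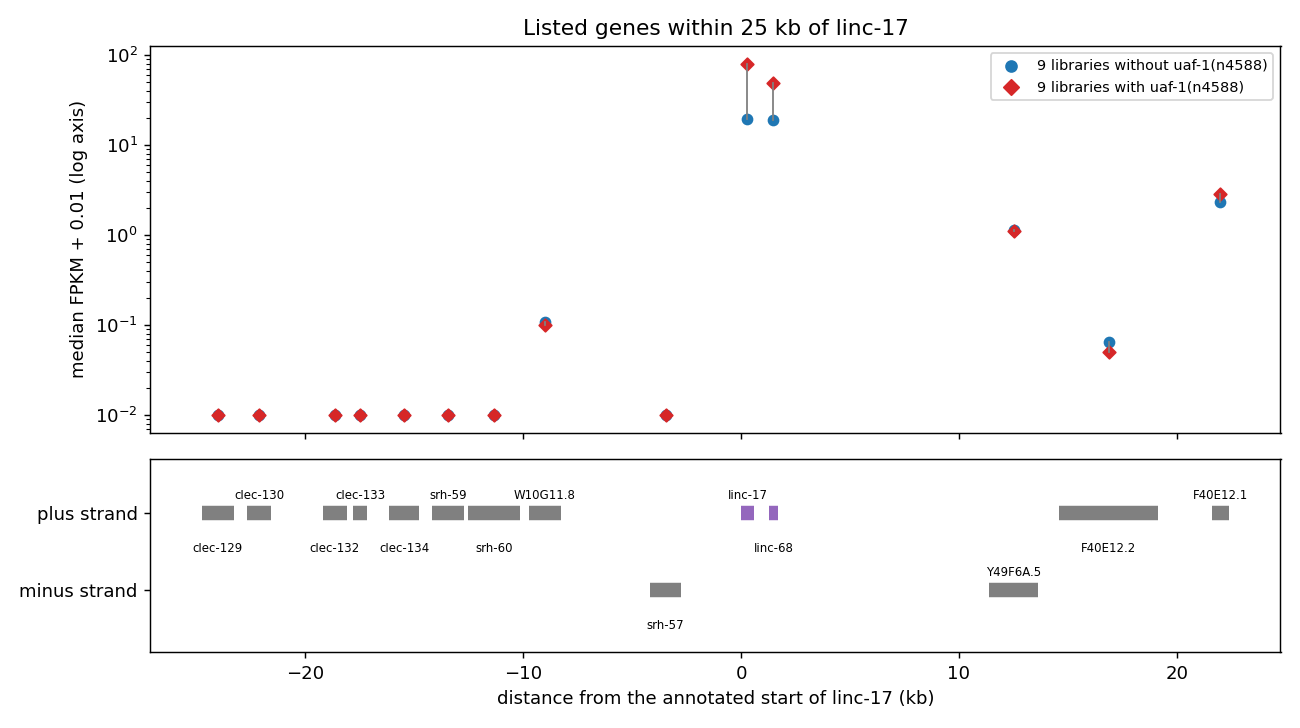
The upper panel plots the median FPKM + 0.01, on a log axis, of each gene listed within 25 kb of linc-17 at the distance of its midpoint from the annotated start of linc-17, over the 9 libraries with and the 9 without uaf-1(n4588). The lower panel shows the annotated spans of the same listed genes by strand, lincRNA genes in purple. The medians of linc-17 are 80.9 and 19.6 FPKM and those of linc-68 are 48.8 and 19.2, while all other genes shown are below 3 FPKM.

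No lincRNA gene was called by limma in any contrast between a pair of strains. Contrasts against wild type share its 3 libraries, those against uaf-1(n4588) share theirs, and the averages reuse the same libraries, so that the contrasts are not independent. In uaf-1(n4588) against wild type 17 were tested, 2 had an unadjusted p under 0.05 (5.97% of all genes), and 0.178% of all genes were called. Libraries of 4 lincRNA genes did not overlap, against 17.4% of all genes: linc-17, linc-68 and linc-4 were higher and linc-82 lower. The log2 change of linc-17 was 3.11 (SE 0.74, adjusted p = 0.192 by limma), and that of linc-68 1.80 (SE 0.72, adjusted p = 0.728). With replicates 2 and 3 only, linc-17 was called, at 3.32 with an adjusted p of 0.0102, the only call among 14 alternatives by limma.

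In uaf-1(n4588); rbm-5(n5119) against rbm-5(n5119) 11 lincRNA genes were tested, 3 had an unadjusted p under 0.05 (4.15% of all genes), and 0.136% of all genes were called. Libraries of linc-17, linc-21, linc-24 and linc-29 did not overlap and were higher, against 8.68% of all genes in either direction. For linc-24 and linc-29 this rested on 2 libraries of the double mutant. The gene linc-21 was listed at 0 in every rbm-5(n5119) library and passed the filter of 1 FPKM only through the double mutant. Its direction was therefore fixed by the filter. The log2 change of linc-17 was 3.67 (SE 0.74, adjusted p = 0.105 by limma) and that of linc-68 2.68 (SE 0.72, adjusted p = 0.360). Of 15 alternatives 3 called linc-17 and 1 called linc-68. Without uaf-1(n4588); rbm-5(n5119) replicate 1 linc-17 was called at 4.50, with an adjusted p of 0.0221 by limma. Without rbm-5(n5119) replicate 1 the log2 changes were lower, at 2.72 for linc-17 and 1.63 for linc-68, with adjusted p of 0.214 and 0.674 by limma. In the 2 double mutant libraries that listed it singly linc-24 reached 33.8 and 34.0 FPKM, against 15.2, 14.2 and 3.05 in rbm-5(n5119), and its log2 change of 1.81 had an adjusted p of 0.9997 by limma.

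In the rbm-5(n5132) background 13 were tested, 1 had an unadjusted p under 0.05 (5.28% of all genes), and 0.0359% of all genes were called. Libraries of linc-17 and linc-68 did not overlap and were higher, against 16% of all genes, with log2 changes of 0.56 (SE 0.74) and 0.43 (SE 0.72). With libraries scaled to 1 median these were 0.98 and 0.85, and the median of all genes moved from -0.09 to 0.28. The unadjusted p under 0.05 was that of linc-106 (X:16905584–16906010, minus strand, 3 exons), listed at 0 in all 3 rbm-5(n5132) libraries. Libraries of the double mutant uaf-1(n4588); rbm-5(n5132) listed it at 3.79, 2.23 and 0 FPKM. It passed the filter of 1 FPKM only through the double mutant, so that its direction was fixed by the filter.

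Addition of rbm-5(n5132) to uaf-1(n4588) went with lower values of linc-17 and linc-68, of which neither was called. In this contrast 17 were tested, 3 had an unadjusted p under 0.05 (7.69% of all genes), and 0.0853% of all genes were called. The libraries of linc-17, linc-24, linc-25 and linc-68 did not overlap and were lower, against 19.5% of all genes. For linc-25 this rested on 2 libraries of each strain, and for linc-24 on 2 libraries of uaf-1(n4588). The log2 change of linc-17 was -1.89 (SE 0.74, adjusted p = 0.577 by limma) and that of linc-68 -0.97 (SE 0.72, adjusted p = 0.799). The difference between the uaf-1(n4588) effects in rbm-5(n5132) and in wild type was -2.55 for linc-17 (SE 1.05, adjusted p = 0.972 by limma), which missed the threshold. Of 13 lincRNA genes tested for that difference 1 had an unadjusted p under 0.05, against 4.6% of all genes, and 0.0787% of all genes were called.

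Addition of rbm-5(n5119) to uaf-1(n4588) went with log2 differences of 0.06 (SE 0.74) for linc-17 and 0.13 (SE 0.72) for linc-68. In this contrast 13 were tested, 0 had an unadjusted p under 0.05 (4.95% of all genes), and 0.0244% of all genes were called by limma. Only linc-24 had libraries that did not overlap, against 16.8% of all genes, and it was listed singly in 2 libraries of each strain. The double mutants differed from each other by a log2 of -1.95 for linc-17 (SE 0.74, adjusted p = 0.970 by limma), lower with rbm-5(n5132), where 14 were tested, 3 had an unadjusted p under 0.05 (4.25% of all genes) and 0.0496% of all genes were called. With replicates 2 and 3 only linc-17 was called in that contrast, at -2.94 with an adjusted p of 0.0224 by limma, the only call among 15 alternatives. The difference between the uaf-1(n4588) effects in rbm-5(n5119) and in wild type was 0.56 for linc-17 (SE 1.05) and called 0% of all genes by limma. Of 13 lincRNA genes tested for it 1 had an unadjusted p under 0.05, against 1.85% of all genes, which was linc-29 at 1.02 (SE 0.43).

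**Figure D5:**
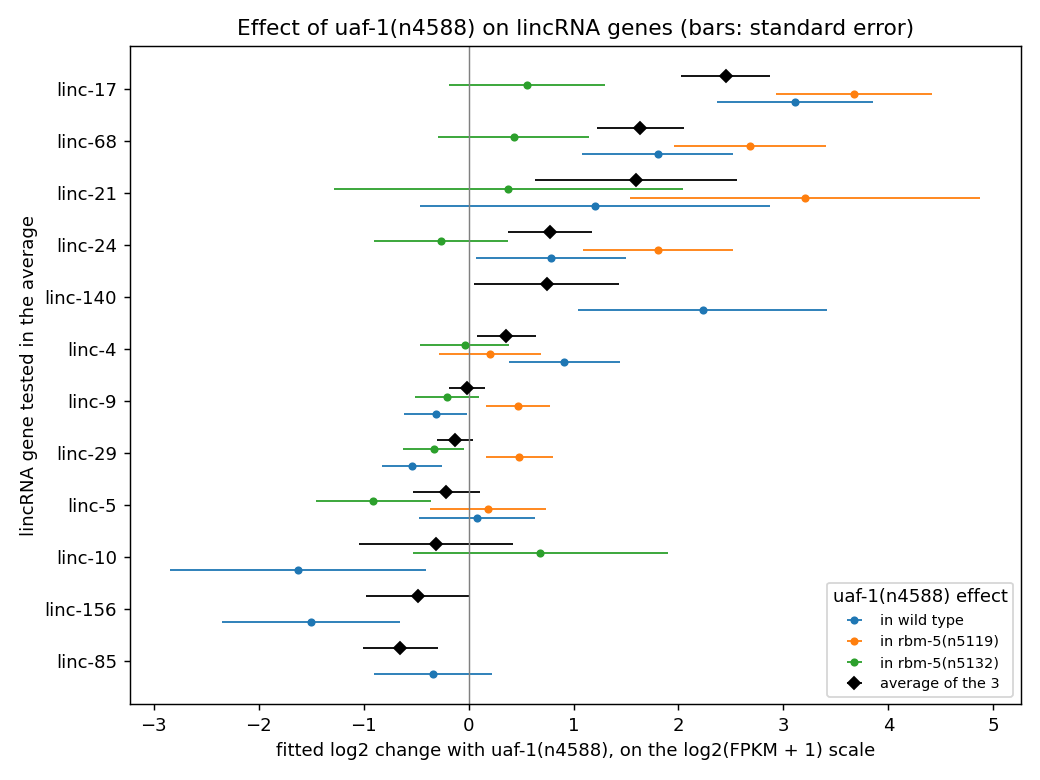
Fitted log2 change with uaf-1(n4588) and its standard error, on the log2(FPKM + 1) scale, for the 12 lincRNA genes tested in the average, with the 3 backgrounds in colours and the average in black. The average of linc-17 is 2.45, that of linc-68 is 1.64, and in the rbm-5(n5132) background they are 0.56 and 0.43. The changes shown for linc-140 and linc-156 rest on 1 library each.

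The rbm-5 alleles alone called no lincRNA gene. In rbm-5(n5119) against wild type 15 were tested, 1 had an unadjusted p under 0.05 (5.65% of all genes), and 0.0234% of all genes were called by limma. The median log2 change of the 15 was -0.75, with 2 above 0, and that of all genes was -0.23. Among the 15, linc-10, linc-42 and linc-156 passed the filter only through wild-type replicate 1, at 28.3, 15.8 and 25.9 FPKM. The gene linc-21 passed it only through 1 wild-type library, at 29.7 FPKM. The direction of these genes was therefore fixed by the filter. The gene linc-9 was at 25.5, 18.2 and 19.6 FPKM in wild type and 12.1, 15.5 and 8.28 in rbm-5(n5119). Those libraries did not overlap, as for linc-29 and 14.4% of all genes, and the log2 change of linc-9 was -0.80 (SE 0.30, adjusted p = 0.649 by limma). With libraries scaled to 1 median it was -0.49 (SE 0.25, adjusted p = 0.655 by limma), and the median of all genes was 0.03.

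In rbm-5(n5132) against wild type 15 were tested, 1 had an unadjusted p under 0.05 (4.97% of all genes), and 0.0115% of all genes were called by limma. Libraries of linc-17 were higher without overlap and those of linc-24 and linc-82 lower, against 13.2% of all genes, with a log2 change of 0.66 (SE 0.74) for linc-17. The smallest p was that of linc-16, at -2.02 (SE 0.79, adjusted p = 0.995), listed singly in 2 wild-type libraries. Over both alleles and backgrounds 12 were tested, 0 had an unadjusted p under 0.05 (9.2% of all genes) and 0.0279% of all genes were called. The smallest p was that of linc-5, with a log2 change of -0.65 (SE 0.34, adjusted p = 0.518 by limma).

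The highest values of several lincRNA genes stood in loci that reached far beyond the annotated gene. The loci of 20 lincRNA genes were over 500 bases longer than annotated in some library, including 11 of the 24 tested in any contrast. Such loci spanned up to 26.0 kb for linc-42, 17.2 kb for linc-73, 5.39 kb for linc-169 and 5.34 kb for linc-2. For linc-37 (III:832984–833347), which overlaps the transcription factor gene zip-2 on the same strand, the 9 libraries with such a locus had 54.3–214 FPKM and the 4 with the annotated span were at 0. For linc-10 (II:3313083–3313507), which overlaps F39E9.6 on the same strand, the 3 longer loci had 2.92–28.3 FPKM and the 14 others were at 0. The value of linc-156 (I:5073579–5079303) was 25.9 FPKM in wild-type replicate 1, where its locus spanned 8.83 kb, and at most 0.0857 in the 17 libraries with the annotated span.

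The gene linc-128 (V:1150906–1153207, 1 exon) was listed at 34.2–635 FPKM in 15 libraries, and all of its loci were over 500 bases longer than annotated, up to 7.75 kb. The calmodulin gene cmd-1 starts 3063 bases beyond it on the same strand, and its annotated span is V:1156271–1158189. In uaf-1(n4588); rbm-5(n5119) replicate 3 the alternative exon ends listed for linc-128, at 52.6 and 218 FPKM, lay within the span of cmd-1. The level of linc-128 can therefore hold reads of cmd-1. The level of linc-16 (II:1820242–1820946), which overlaps the F-box genes fbxa-3 and fbxc-19, was 8.0–258 FPKM in 9 libraries, 7 of them with a longer locus.

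Of 1872 pairs of a lincRNA gene and a library, 1606 named the gene singly, 187 only together with other genes, and 79 not at all. Apparent absence was often a joint name. No uaf-1(n4588) library named linc-37 singly, while wild type did in all 3, but all 3 uaf-1(n4588) libraries named it jointly, with far-8 or K02F3.15. In the same way linc-14 was joint with C18D4.6 in uaf-1(n4588), linc-11 with Y49F6C.8 in uaf-1(n4588); rbm-5(n5132), and linc-18 with C15C6.4 or C15C6.3 in uaf-1(n4588); rbm-5(n5119). The genes linc-11, linc-14, linc-18 and linc-77 were at 0 wherever they were listed singly. The gene linc-77 was joint or not named in rbm-5(n5119) and uaf-1(n4588); rbm-5(n5132), and named singly in the 3 uaf-1(n4588) libraries.

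Single libraries held the highest values of some genes. Of the 28 genes above 0 that were listed in all 18 libraries, 6 had over 50% of their summed level in 1 library, which was a replicate 1 library for 5 of them. For 2 of the 6 it was the 1 library above 0. The gene linc-1 (I:13652524–13652727, 157 exonic bases) was listed at 46628 FPKM in uaf-1(n4588) replicate 1, 43939 in rbm-5(n5119) replicate 1, 12847 in uaf-1(n4588); rbm-5(n5119) replicate 1, 3037 in rbm-5(n5132) replicate 1 and 1294 in rbm-5(n5119) replicate 3. The ribosomal protein gene rpl-31 lies 221 bases away on the opposite strand. The gene linc-1 was at 0 in the 10 other libraries that listed it, and 0.149–2.56% of all summed start FPKM stood in it where it was above 0. The gene linc-140 (X:15831417–15833245) was at 102 FPKM in uaf-1(n4588) replicate 1 and at 0 in the 17 others. It entered the contrasts through that 1 value, so its tests are not given. The gene linc-21 (IV:4242086–4242466) was at 88.3 FPKM in that library, at 0 in 10 libraries and at 3.02–29.7 in the 7 others. The genes linc-64 and linc-82, also listed in every library, reached at most 2.70 and 3.67 FPKM and were at 0 in 11 and 6 libraries. The high values of linc-1 and linc-21 are spread over several strains, and their link to the high top shares of the replicate 1 libraries was not tested.

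Splicing of lincRNA genes could not be tested between strains. The lists held 18 entries of 9 distinct exon, intron or exon-end forms in 6 lincRNA genes, and no form was listed in more than 3 libraries. Those of linc-9 and linc-29 lay inside the annotated gene, and those of linc-2, linc-42, linc-73 and linc-128 outside it. Those of linc-42 and linc-128 lay within the annotated spans of their neighbours cdh-1 and cmd-1. In uaf-1(n4588); rbm-5(n5132) replicate 3 the exon of linc-29 at IV:6356759–6356878 was listed at 2.22 FPKM with and 12.4 FPKM without it. The alternative exon ends of linc-9 were at 2.42 and 13.3 FPKM in rbm-5(n5132) replicate 3 and at 3.21 and 20.0 in uaf-1(n4588); rbm-5(n5132) replicate 1, with the same end higher in both libraries.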

How the data were processed

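Reads had been mapped with TopHat2 2.0.12 and Bowtie2 to WBcel235, per the submitters' processing notes. The deposited values are FPKM per transcript event, per the file headers, in 1 list for each library, and no scaling between libraries is stated. Start FPKM of loci naming 1 gene was summed per gene. Entries naming no gene, 4.62–12.4% of summed start FPKM, were left out of all tests. Labels were matched to Ensembl release 115, 19709 of 20574. Genes were tested with limma 3.58.1 in R 4.3.3 on log2(FPKM + 1), with 1 mean per strain over 18 libraries and an intensity trend, two-sided, with Benjamini-Hochberg adjustment over all genes of a contrast. On simulated data of the averaged uaf-1(n4588) contrast, over 7042 genes, 40%, 78%, 98% and 96% of changes of 1, 2, 3 and 4 on the log2 scale were recovered, with 6 false calls. Simulated errors were independent between libraries, and the changed genes were drawn from all of these genes. The rates therefore do not measure recovery of lincRNA genes, or recovery where libraries share deviations. The members, lists and contrasts were chosen with earlier results of these data known. The named genes were those called, the 10 highest listed in every library, the 2 with the smallest p per contrast, and those listed in all libraries of 1 strain and none of another. Others, such as linc-1, linc-10 and linc-128, were named after their values were seen. Alternatives changed the scaling, pseudocount, filter, transcript end, treatment of 0, replicate block and libraries. The interactions, the contrast between double mutants and leaving out both libraries with most entries at 0 were added after seeing the data.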

Additional observations from a re-analysis of the deposited data

How the results depend on the processing

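The call of linc-17 for uaf-1(n4588) averaged over 3 backgrounds held in all 26 alternatives, at log2 changes of 2.13 to 2.83 and adjusted p of 0.00147 to 0.0430 by limma. Scaling libraries to 1 median moved the median log2 change of all genes from -0.03 to 0.17 and that of linc-17 to 2.66. Leaving out 1 library at a time gave 1 to 2 lincRNA genes called in this contrast and 0 to 1 in uaf-1(n4588); rbm-5(n5119) against rbm-5(n5119). With replicates 2 and 3 only, the numbers called were 2 in the average, 1 in uaf-1(n4588) against wild type and 1 in the rbm-5(n5119) background. Without both libraries with most entries at 0, chosen after seeing the data, they were 2 in the average and 2 in the rbm-5(n5119) background. The genes were linc-17 and linc-68. For the averaged contrast the number of all genes called ranged from 24 to 57, against 47. The difference between uaf-1(n4588) effects in rbm-5(n5119) and wild type, 0.56 for linc-17 and 0.88 for linc-68, turned to -0.39 and -0.17 without rbm-5(n5119) replicate 1, and that of linc-17 to -0.07 without uaf-1(n4588); rbm-5(n5119) replicate 3. Leaving out 1 library at a time it reached 1.38 for linc-17 and 1.60 for linc-68. The cause was not tested. Reading ends in place of starts moved the median level of lincRNA genes above 0 in wild type from 2.02 to 3.93 FPKM. Whether the replicate numbers pair libraries was not settled, and the main fits left them out. Deviations from strain means had a median correlation of 0.0945 in same-number pairs and -0.0402 in other pairs. Of 45 same-number pairs 21 correlated above 0.1, and 13 of 18 libraries correlated best on average with their own number. With the replicate block 42 genes were called in the average, 1 of them a lincRNA gene, and 6 in uaf-1(n4588) against wild type, 0 of them lincRNA genes, against 15 without it. The alternatives for splicing of lincRNA genes gave no values, since no form could be tested. FPKM without depth gives no counting error, and levels near 1 FPKM or at 0 limit what could be tested to 24 of 104 genes.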

Other observations

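The lists held 88 labels that named a linc- gene together with other genes, of which 29 had a median of at least 10 FPKM where listed. The label of Y41E3.1 and linc-60 was listed in 16 libraries at 44.1–312 FPKM, and that of linc-2 and pcf-11, a transcription termination factor gene, in 11 libraries at 25.6–69.0. The label of fbxa-3 and linc-16 was listed in the 9 libraries that did not name linc-16 singly, at 14.1–783 FPKM. Which gene of a label the reads came from was not tested.

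Starts and ends gave the same sum within 0.1% for 429 of 455 values above 0, or 94.3%, against 85.7% over all singly named genes. The gene linc-169 was among the exceptions: in 6 libraries its starts were at 0–132 FPKM and its ends at 79.2–659. Of the start entries of lincRNA genes 69.1% stood in reference loci, where 80.7% were at 0, and the rest in loci assembled from reads, where 52.9% were at 0. Over all singly named genes 45.3% stood in reference loci, where 50.01% were at 0, and in assembled loci 19.6% were at 0. The gene linc-74, too low to be tested, was at 0.239–1.03 FPKM in the 9 libraries with uaf-1(n4588) and 0–0.513 in the 9 without, which overlap.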
